A study of Mus musculus with 24 samples.

Results

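The 44 microRNA (miR) precursors described here lie in the imprinted Dlk1-Dio3 domain of mouse chromosome 12, and were taken by name from a small RNA count table of 1180 precursors. A precursor was tested when it had more than 5 reads in all 3 libraries of at least 1 group. Of the 44 members 41 passed, among 500 precursors that passed in the whole table. The tissue was the nucleus accumbens (NAc), a ventral striatal region of reward and motivation, punched from C57BL/6J mice 9 weeks old by the labels. The 4 groups were unstressed males (NSM), males after subchronic variable stress (SM), unstressed females (NSF) and females after that stress (SF). Subchronic variable stress (SCVS) exposed mice to foot shock, tail suspension and restraint in alternation. Every group had 3 libraries, each made from 10 punches pooled over 5 mice, so the spread between libraries is a spread between pools and not between single animals. The females were in estrus or proestrus when tissue was taken. No group carried a transgene or a deleted allele, so the design has no targeted gene with which to check the labels.

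The Dlk1-Dio3 domain holds one of the largest groups of miR genes in placental mammals. Its miRs are expressed from the maternal chromosome along with the long noncoding RNAs Meg3, Rian and Mirg, while the protein-coding genes Dlk1, Rtl1 and Dio3 are expressed mainly from the paternal one. A miR hairpin is cut to short mature strands that pair through their seed, bases 2 to 8, with target mRNAs and lower their stability or translation. Neurons express the cluster strongly, and miR-134, one of its members, is known for limiting dendritic spine growth by repressing Limk1.

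All 44 members lie on the plus strand of chromosome 12 between 110801902 and 110982005 in NCBIM37, the build of the files, a span of 180.1 kb. The order along the domain is also an order of hosts. The first member, mmu-mir-770 (mir-770 below, as for the other members), lies at chr12:110801902-110801995 in an annotated exon of Meg3. It is followed by a group that includes mir-431, mir-433, mir-127, mir-434 and mir-136, which lie antisense to the Rtl1 exon. Then come mmu-mir-341 at chr12:110849710-110849805 and mir-370 at chr12:110856468-110856546, both in an intron of Rian. The last group runs from mir-379, which starts at 110947235, to mir-410, which ends at 110982005, and here is called the mir-379/mir-410 cluster.

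RefSeq listed 84 mature sequences (GRCm38.p6) for the 44 members, and each was found letter for letter in the NCBIM37 domain. Of 4 members, mir-376c, mir-485, mir-487b and mir-539, RefSeq listed 1 strand. The listed strands carried 81 distinct seeds, and 3 of these occurred in 2 members each. Those 3 pairs are printed first because they share a seed among the listed strands, with the seed in capitals and 5′ to 3′.
miR-379-3p: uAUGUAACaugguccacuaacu
miR-411-3p: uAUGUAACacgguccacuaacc
miR-410-5p: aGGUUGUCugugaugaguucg
miR-494-5p: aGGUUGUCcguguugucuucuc
miR-376b-5p: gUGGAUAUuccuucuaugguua
miR-376c-5p: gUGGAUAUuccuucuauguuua

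The next sequences belong to some of the members whose differences between groups are described below, again with the seed in capitals. None of these shares its seed with another of the 84 listed strands.
miR-341-5p: cGGUCGGCcgaucgcucgguc
miR-341-3p: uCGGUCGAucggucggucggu
miR-487b-5p: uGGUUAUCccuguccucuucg
miR-431-5p: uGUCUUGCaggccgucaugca
miR-431-3p: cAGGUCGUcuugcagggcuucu
miR-154-5p: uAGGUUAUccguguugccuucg
miR-154-3p: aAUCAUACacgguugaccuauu
miR-539-5p: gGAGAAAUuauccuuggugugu
miR-770-5p: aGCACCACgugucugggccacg
miR-770-3p: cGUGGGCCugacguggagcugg
The count table gives 1 value per precursor, so the strands of a hairpin cannot be told apart in the values that follow. A few mature strands are close enough to compete for reads. The 5p strands of mir-376b and mir-376c differ at 1 base, the 3p strands of mir-379 and mir-411 at 2, and the 3p strands of mir-300 and mir-381, and of mir-376a and mir-376b, at 3, so the split of counts within these pairs is uncertain.

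Small RNA libraries held 5086554 to 13522287 reads. The NSM libraries, at 5086554 to 6738555, had the lowest group mean, but SM3, at 6455641, was shallower than NSM1. The mRNA libraries from the same pools held 41076780 to 60867747 reads. Levels of a miR or gene are given as CPM, read counts scaled to a fixed total per library, after TMM scaling, which evens out differences in library composition. Values and sums of cell type markers are CPM of the plain library total, without TMM scaling. Markers of accumbens medium spiny neurons were high in all 12 libraries, with Drd2 at 131 to 159 CPM and Penk at 1160 to 1660. Hypothalamic peptides were near 0, at a summed 0.0823 to 0.237 CPM. One library stood apart, since NSM1 held 80.5 CPM of the 4 choroid plexus markers against 9.37 to 13.7 in the other 11. The summed cortical glutamatergic markers, 9 rows of which 1 was at 0, ranged from 50.3 to 72.2 CPM in NSM, 88.9 to 248 in SM, 66.8 to 424 in NSF and 84.7 to 158 in SF.

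By mean level the tested members spanned ranks 32 to 308 of the 500 tested miRs, with 4 of them among the 50 most abundant. Together they took 7498059 reads over the 12 libraries, and between 7.07% and 7.69% of the reads of each. The most abundant was mmu-mir-434, one of the Rtl1 antisense miRs, at a mean of 10400 CPM, which placed it at rank 32 of the 500 tested. It was followed by mmu-mir-381 at 8790 CPM, mir-411 at 7220, mir-127 at 5010 and mir-433 at 4130. These 5 members held 48.1% of all member reads. At the other end mir-758 had 16.1 CPM, mir-494 7.26 and mir-679 6.83. Of the 41 tested members 19 had a mean of at least 1000 CPM and 9 were under 100. CPM counts reads and is not divided by length, and the listed mature strands were 19 to 26 bases long, so levels of different members are compared as reads and not as molecules.

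**Figure D1:**
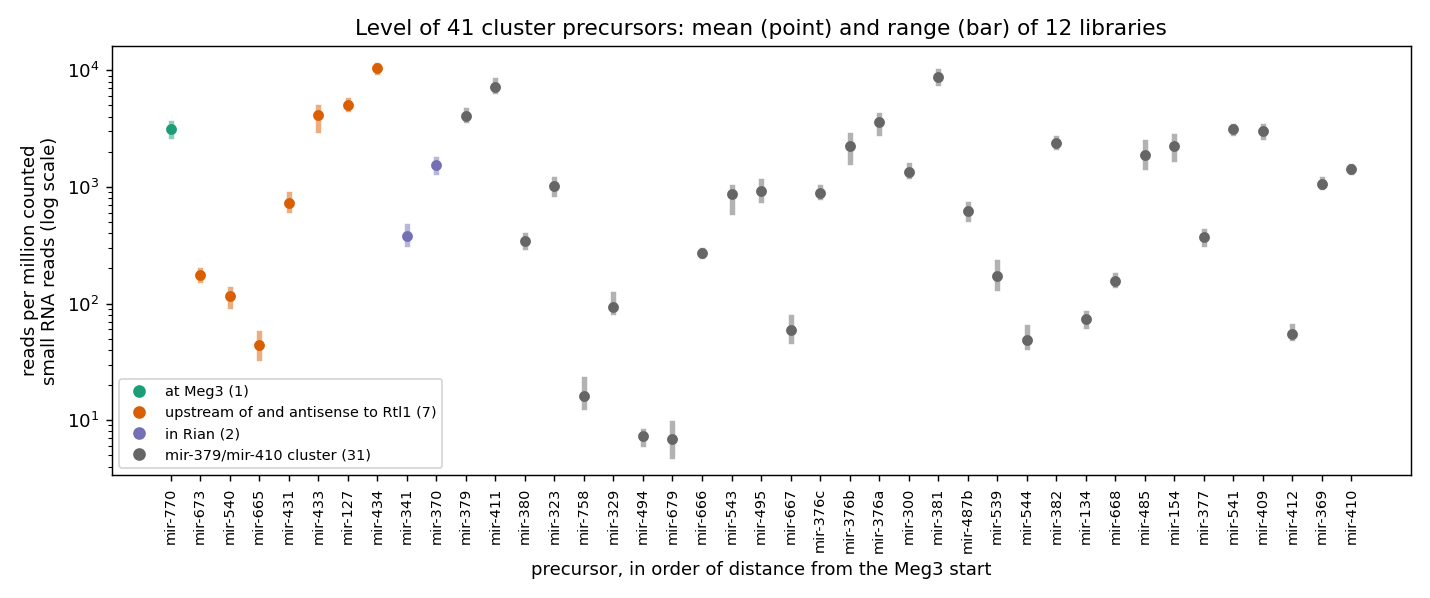
Level of the 41 tested precursors in CPM (log axis), placed in order of their distance from the Meg3 start and coloured by their position group. Points are means of 12 libraries and lines span the lowest to the highest library; levels run from 6.83 CPM (mir-679) to 10400 CPM (mir-434), and for no member does the highest library exceed the lowest by more than 1.92 times.

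Levels of single members were stable between pools. The highest library exceeded the lowest by 1.13 times for mir-434, 1.27 for mir-381 and 1.92 for mir-679, the member with the fewest reads. The median SD within a group was 0.101 on the log2 scale over the 41 members, against 0.178 over all 500 tested. Among precursors of at least 100 CPM the medians were closer, at 0.089 for 32 members and 0.103 for 209 in all. Members that share a seed could differ widely in level. The mir-379 and mir-411 pair had mean levels of 4060 and 7220 CPM, and the mir-376b and mir-376c pair 2240 and 880. The levels of mir-410 were 1330 to 1520 CPM and those of mir-494, with the same 5p seed, 6.24 to 8.11. For the 6 members of these pairs no difference between groups had an unadjusted p under 0.05 in any of the 5 comparisons described below.

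The miR families of another large cluster, in an intron of Sfmbt2, took 0.0483% to 0.0859% of reads with 32 of 81 precursors tested. These rows were taken by family name and not by position.

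The other 3 members did not pass the read filter. Both mir-136 and mir-654 had 0 reads in all 12 libraries, and mir-337 had 1 read in 1 SM library. A count of 0 allows up to 0.59 CPM in the shallowest library and 0.222 CPM in the deepest, counting error only. The hairpin of mir-136 overlaps Mir3071 on the opposite strand and that of mir-337 overlaps Mir3544, while mir-654 overlaps no other hairpin. Rows of the count table were matched by name to RefSeq hairpins, and not every row had a match. Of those matched, 44 had a hairpin overlapping one on the opposite strand. Of these 34 were at 0 in every library, against 193 of 900 matched rows with no overlap. What set the zeros of mir-136 and mir-337 was not tested.

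The share of all small RNA reads on the cluster differed little between groups. It was 7.65%, 7.53% and 7.69% in the NSM libraries and 7.10%, 7.39% and 7.27% in the SM libraries. In females it was 7.34%, 7.47% and 7.07% in NSF and 7.20%, 7.55% and 7.60% in SF. Means were 7.62% ± 0.0805 (SD, n = 3) in NSM, 7.25% ± 0.145 in SM, 7.29% ± 0.208 in NSF and 7.45% ± 0.215 in SF. All 3 NSM libraries lay above every SM and NSF library, and the SF values overlapped those of each other group. Per member, 24 to 28 of the 41 were above their mean over all libraries in the NSM libraries, and 12 to 22 in the other 9. Counting error was small beside the spread of the share, with 95% Wilson intervals of at most 0.0232 percentage points on either side. The share is given without a test, because a share falls wherever other miRs take more of the reads. In pooled tissue, fewer cells of a type and less RNA per cell cannot be told apart.

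**Figure D2:**
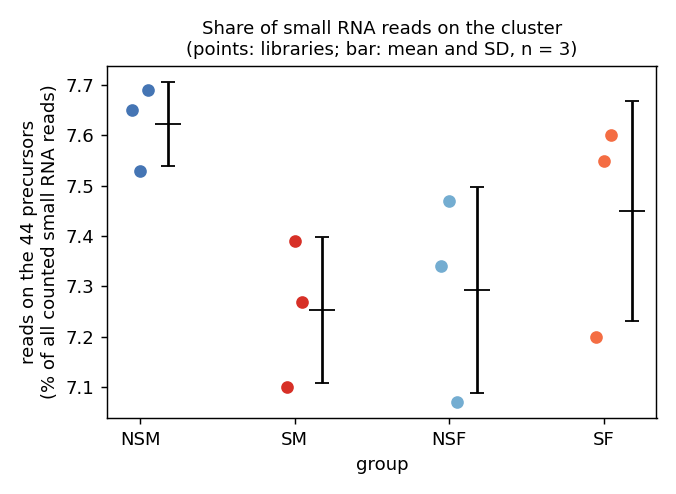
Percent of small RNA reads on the 44 precursors in each of the 12 libraries, by group, with mean and SD (n = 3); the y axis does not start at 0. NSM libraries lie at 7.53% to 7.69%, above all SM (7.10% to 7.39%) and NSF (7.07% to 7.47%) libraries.

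The first comparison asked how SCVS changed the cluster in males. A miR was called where the unadjusted p was under 0.05 and the fold was at least 1.3 by voom and limma, the rule of the study's methods. No member was called (0 of 41), whereas 5.2% of all tested miRs were. Member log2 differences ran from -0.29 to 0.20 with a median of -0.06, against -0.01 over all tested, and 30 of 41 were below 0 (53.4% of all tested). Without the fold requirement 6 members had p under 0.05, against a background of 12.4%, and at an adjusted p under 0.05 there were none among members or over all 500. The SM libraries lay wholly below NSM for 9 members, where the background for this direction was 11.4%, and wholly above for 2 (background 8.2%).

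The member with the smallest p was mir-770, the one hosted by Meg3. Its level was 3390, 3060 and 3460 CPM in NSM, and 2820, 2800 and 2720 in SM. All SM libraries were below all NSM libraries, while the NSF values of 3020, 3340 and 3150 and SF values of 2960, 3530 and 3190 spread around those of NSM. The log2 difference in males was -0.25 (SE 0.08), with an adjusted p = 0.181. Its unadjusted p was under 0.05, but not without NSM3.

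Members with similar differences came from both the Rtl1 and the Rian segments. The Rian intron miR mir-370 had 1690, 1730 and 1620 CPM in NSM against 1350, 1560 and 1360 in SM, with no overlap and a log2 difference of -0.24 (SE 0.08, adjusted p = 0.181). The Rtl1 antisense miR mir-431 had 801, 874 and 823 CPM in NSM against 659, 703 and 752 in SM, again without overlap, at -0.24 (SE 0.08, adjusted p = 0.181). For these 2 the unadjusted p stayed under 0.05 whichever library was left out. In the mir-379/mir-410 cluster 1 library decided the values. There mir-543 was at 938, 951 and 874 CPM in NSM and 614, 819 and 849 in SM, so that its log2 difference of -0.29 (adjusted p = 0.351) became -0.14 without SM1. Likewise mir-154 went from -0.24 (adjusted p = 0.332) to -0.10 without SM1, and mir-323, the 1 member higher in SM at p under 0.05, went from 0.19 (adjusted p = 0.379) to 0.09 without NSM2. The second largest difference was that of mir-376b at -0.27 (95% interval -0.59 to 0.05), whose libraries overlapped.

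By position, the medians of the log2 differences in males were -0.02 over 7 members of the Rtl1 group, -0.19 over the 2 Rian miRs and -0.06 over 31 members of the mir-379/mir-410 cluster. For the 5 most abundant members the unadjusted p was above 0.05 in each case. For mir-434 the libraries gave 10600, 11000 and 10300 CPM in NSM and 9680, 10800 and 10400 in SM, and the difference was -0.04 (95% interval -0.18 to 0.09). For mir-381 the groups did not overlap, at 8950 to 9460 CPM in NSM and 7740 to 8650 in SM, and the difference was -0.16 (interval -0.33 to 0.01).

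Marker sums of several cell types also differed between NSM and SM without overlap. The 4 red blood cell markers summed to 20.1 to 24.6 CPM in NSM and 33.4 to 39.9 in SM, the 5 oligodendrocyte markers to 4390 to 4840 and 4990 to 5290, and the 4 microglia markers to 208 to 223 and 231 to 246. The 4 astrocyte markers were lower in SM, at 173 to 179 CPM against 193 to 203 in NSM, and so were the choroid plexus markers, at 9.37 to 12.4 against 12.7 to 80.5. Among miRs, the 5 rows of the muscle miRs mir-1a, mir-133a and mir-206 (1 at 0) summed to 337 to 430 CPM in NSM and 579 on average in SM, with a lowest library of 516. The blood miRs (2 of 3 rows at 0) summed to 140 to 173 CPM in NSM and 183 to 263 in SM, and the 3 rows of the neuronal miR mir-124 to 71900 to 77600 and 77800 to 80300. Their part in the member differences, and that of the cortical markers and depth given above, was not tested.

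In females SCVS called no member either (0 of 41, background 4.8%). Log2 differences ran from -0.35 to 0.28 with a median of 0.02, against 0.01 over all tested, and 18 of 41 were below 0 (48.4% in all). Only mir-539 and mir-487b had p under 0.05, against a background of 8%, and none passed after adjustment among members or over all 500. Groups did not overlap for 5 members (13.6% of all tested). Same-numbered female libraries deviated together, and with the replicate number as a block the members at p under 0.05 became 4, still with none called. Next in size to mir-539 were mir-679 at 0.28 (95% interval -0.16 to 0.71) and mir-667 at 0.23 (-0.10 to 0.56), both among the members with few reads, and without SF3 they became 0.10 and 0.11. Without NSF1 mir-667 became 0.15, and without NSF3 0.37. The difference of mir-487b was 0.15 (SE 0.07, adjusted p = 0.554), at 0.13 to 0.17 when 1 library was left out, with an unadjusted p under 0.05 in 5 of 12 omissions.

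The largest difference in females was that of mmu-mir-539, from the middle of the mir-379/mir-410 cluster at chr12:110966339-110966412. It stood at 202, 229 and 203 CPM in NSF and at 166, 187 and 149 in SF. Values in males were 168, 193 and 141 in NSM, and 152, 135 and 138 in SM. The 3 NSF libraries were thus above all 9 others. The log2 difference of SF from NSF was -0.35 (SE 0.11, 95% interval -0.59 to -0.12), adjusted p = 0.344. At a fold of 1.27 it missed the fold threshold, which it passed without NSF1 (-0.38) or without SF2 (-0.43), and over all 12 omissions of a library it ranged from -0.43 to -0.27. The males gave -0.23 (adjusted p = 0.401), and the difference between the sexes was -0.12 (95% interval -0.46 to 0.22, adjusted p = 0.853).

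The question of whether the sexes responded differently was tested directly, as the female minus the male difference. A single member was called, mir-154, where 6.8% of all tested miRs were. Of the 41 members 12 were below 0 (46.8% of all tested) and 29 above, and the median was 0.05 against 0.02 in all. At p under 0.05 there were 4 members (background 8.8%), and none at an adjusted p under 0.05 (background 0.2%).

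The hairpin of mmu-mir-154 lies at chr12:110976634-110976717, in an intron of Mirg. Its level was 2340, 2750 and 2460 CPM in NSM, and 1730, 2360 and 2330 in SM. In females it was 2110, 2130 and 2030 in NSF, and 2410, 2270 and 2230 in SF. The lowest value was that of SM1, the male groups overlapped, and SF lay wholly above NSF. The interaction was 0.38 on the log2 scale (SE 0.15, 95% interval 0.07 to 0.69, adjusted p = 0.486), at a fold of 1.3, just past the threshold. The female difference alone was 0.14 (adjusted p = 0.803). Leaving out 1 library gave 0.23 to 0.46, and the call was lost without NSM2 (0.32, where p also rose over 0.05), NSM3 (0.37), SM1 (0.23), NSF3 (0.33), SF1 (0.35) or SF2 (0.36).

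The remaining members at p under 0.05 were mir-431 at 0.35 (SE 0.11, adjusted p = 0.42), mir-770 at 0.27 (adjusted p = 0.486) and mir-341 at 0.22 (adjusted p = 0.542). When 1 library was left out, mir-770 ranged from 0.17 (without SF2) to 0.33 and kept an unadjusted p under 0.05 in 5 of 12 omissions, and mir-341 ranged from 0.16 (without SF2) to 0.25 and kept it in 4. For mir-431 the male difference of -0.24 stood beside a female difference of 0.11, with NSF at 667 ± 44.4 CPM (SD, n = 3) and SF at 720 ± 43.9, which overlap. Its NSM values were above those of all 9 other libraries. The fold of 1.28 was below the threshold, and the call was made with library size scaling (0.40) and without NSM1, NSF1 or SF3 (0.38 to 0.41). The third largest interaction, that of mir-543, was 0.27 (95% interval -0.11 to 0.66), and became 0.12 without SM1, 0.11 without NSF3 and 0.18 without SF2.

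**Figure D3:**
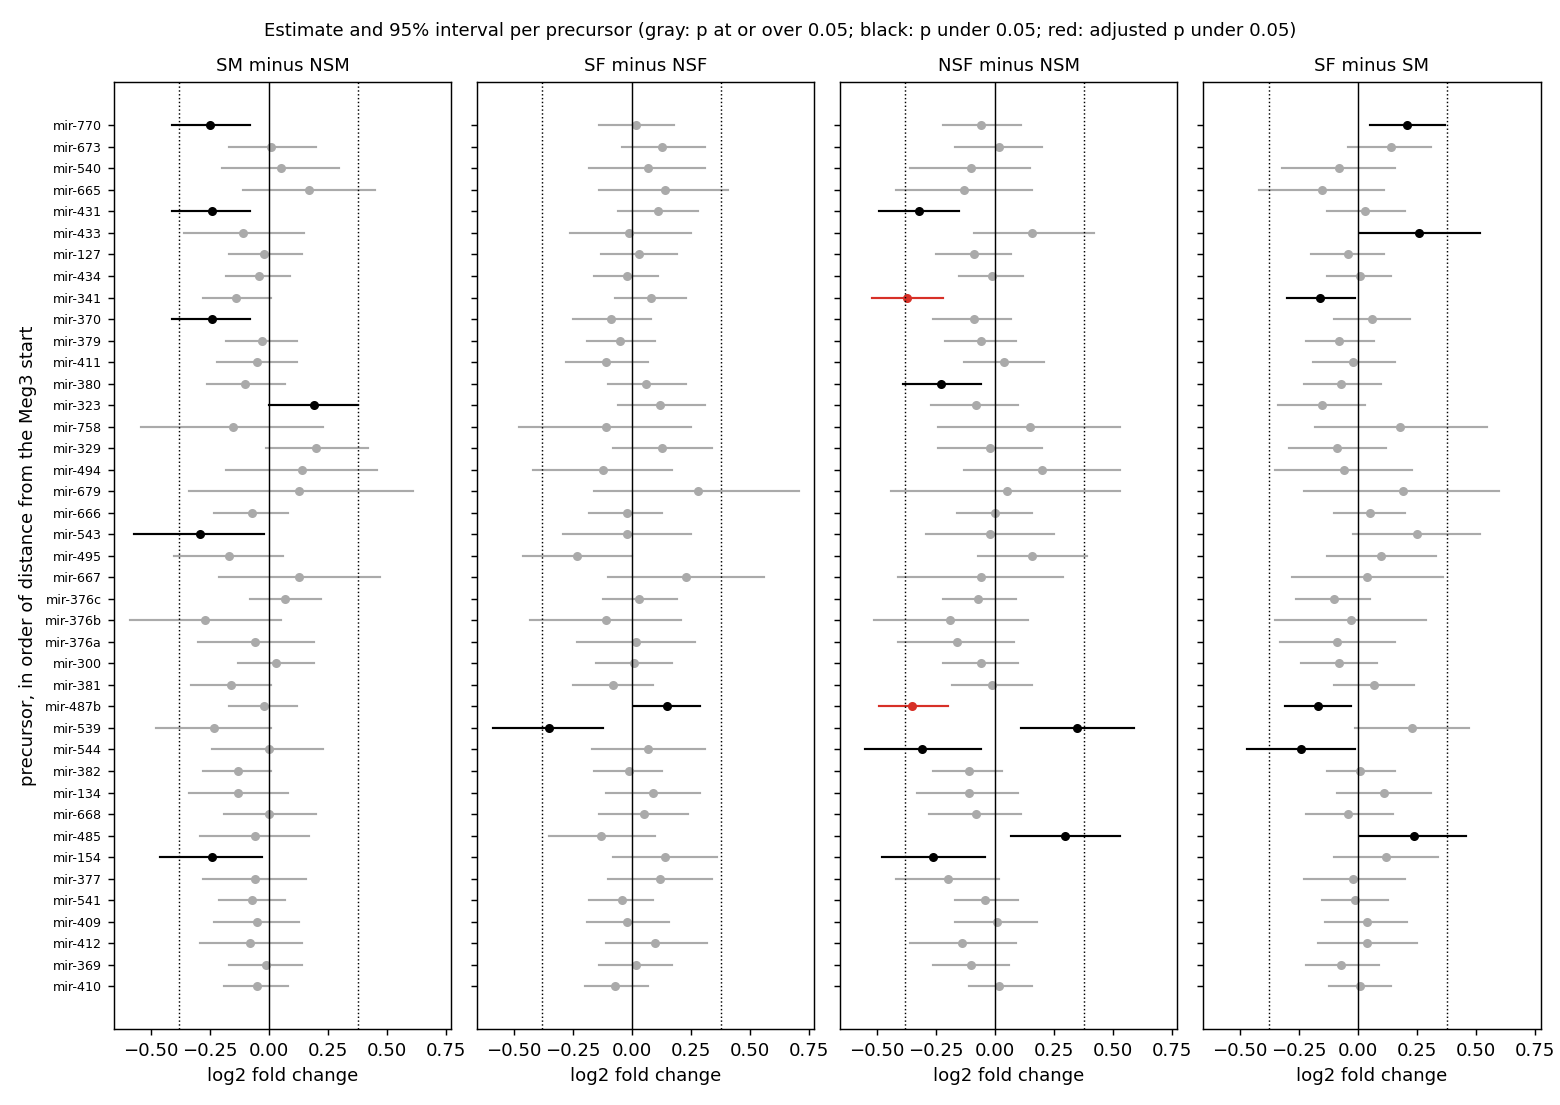
Log2 difference and 95% interval of each of the 41 tested precursors, in 4 comparisons, with dotted lines at a fold of 1.3. The panels are SM against NSM, SF against NSF, NSF against NSM and SF against SM. Black marks p under 0.05 and red an adjusted p under 0.05. The red points are mir-341 and mir-487b in NSF against NSM, and points lie between -0.37 and 0.35.

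Unstressed females and unstressed males were compared next, which shares the NSM libraries with the SCVS comparison in males, so that the values of these comparisons cannot be read as separate evidence. No member was called (0 of 41, background 7.6%). The median was -0.06 against -0.02 in all, with 30 of 41 below 0 (53% in all). There were 8 members with p under 0.05 (background 16.2%), and 2 members, mir-341 and mir-487b, with an adjusted p under 0.05 (background 1%). NSF libraries lay wholly below NSM for 7 members (background 11%) and wholly above for 3 (background 12.2%).

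The Rian intron miR mir-341 showed the clearest order of groups. It was at 423, 459 and 419 CPM in NSM, 386, 402 and 393 in SM, 350, 323 and 332 in NSF, and 360, 362 and 339 in SF. All 6 male libraries were above all 6 female ones, NSM was above SM without overlap, and NSF and SF overlapped. Group means were 434 ± 21.7 (SD, n = 3), 394 ± 7.93, 335 ± 13.8 and 354 ± 12.7 CPM. The NSF against NSM difference was -0.37 (SE 0.07, 95% interval -0.52 to -0.22, adjusted p = 0.0142 by limma). At a fold of 1.29 it was short of the fold threshold, which it passed with library size scaling (-0.40) and without NSM1 (-0.39), NSM3 (-0.39) or NSF1 (-0.40).

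The values of mmu-mir-487b, at chr12:110965543-110965624 in the mir-379/mir-410 cluster, split the sexes in the same way. They were 678, 686 and 668 CPM in NSM and 716, 642 and 640 in SM. In females they were 538, 532 and 528 in NSF and 611, 589 and 579 in SF. Again every male library was above every female one, NSM and SM overlapped, and SF was wholly above NSF. Means were 677 ± 9.02 (SD, n = 3), 666 ± 43.1, 533 ± 4.79 and 593 ± 16.4 CPM. The NSF against NSM difference was -0.35 (SE 0.07, 95% interval -0.49 to -0.20, adjusted p = 0.0147), a fold of 1.27, and it passed the fold threshold with quantile normalization (-0.39).

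Both differences held their size when any library was left out, at -0.40 to -0.33 for mir-341 and -0.35 to -0.34 for mir-487b, with an unadjusted p under 0.05 in all 12 omissions. Their adjusted p did not always hold. It was above 0.05 for both without NSM1 (0.0731 for both), NSM3 (0.0743 and 0.113) or NSF2 (0.11 for both), for mir-487b alone without NSF3 (0.089), and with a filter of 1 read (0.0691 and 0.0811).

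In the other direction mir-539 was higher in NSF than in NSM, by 0.35 (SE 0.11, adjusted p = 0.167), with the library values given above and no overlap, and was called without NSM2 (0.45), NSF1 (0.38) or NSF3 (0.38). The level of mir-485, a miR known to repress the synaptic vesicle protein SV2A, was 2020, 2410 and 2010 CPM in NSF against 1880, 1640 and 1700 in NSM, a difference of 0.30 (adjusted p = 0.189). Below NSM were also mir-431 at -0.32 (adjusted p = 0.0681), mir-544 at -0.31 (0.197), mir-154 at -0.26 (0.217) and mir-380 at -0.23 (0.189). The unadjusted p under 0.05 was lost without NSM3 for mir-539 (0.24) and mir-544 (-0.25), without NSM2 for mir-154 (-0.20), without NSF3 for mir-380 (-0.20), and without NSM2 or NSF2 for mir-485 (0.26 and 0.22). Abundant members showed small differences, for example mir-434 at -0.01 (95% interval -0.15 to 0.12). Marker sums differed here too. Without overlap were the red blood cell markers, at 20.1 to 24.6 CPM in NSM and 26.7 to 34.4 in NSF, the oligodendrocyte markers, at 4390 to 4840 and 4860 to 5280, the muscle miRs, at 337 to 430 and 581 to 687, and the choroid plexus markers, at 12.7 to 80.5 and 9.41 to 11.8. The cortical markers overlapped, at 50.3 to 72.2 and 66.8 to 424. Their part in the member differences was not tested.

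Stressed females against stressed males, a comparison added after the data were seen, compares groups that hold none of the NSM or NSF libraries. It called no member (0 of 41, background 5.2%), with a median of 0.01 in members and in all and 20 of 41 below 0 (47% in all). At p under 0.05 there were 6 members (background 8%), and at an adjusted p under 0.05 none among members or in all. For mir-341 the difference was -0.16 (SE 0.07, adjusted p = 0.573) and for mir-487b -0.17 (SE 0.07, adjusted p = 0.573). Both had the sign seen in unstressed mice, no overlap and an unadjusted p under 0.05, which mir-341 lost without SM2 (-0.14) or SF3 (-0.14) and mir-487b without SM1 (-0.12). The other 4 at p under 0.05 were mir-770 at 0.21 (adjusted p = 0.573), mir-485 at 0.24 (0.573), mir-433 at 0.26 (0.576) and mir-544 at -0.24 (0.573), and mir-543 was at 0.25 (0.643). Each of these 5 moved with 1 library. Without SM1 mir-485 became 0.15, mir-433 0.13, mir-544 -0.12 and mir-543 0.09, and without SF2 mir-770 became 0.12, mir-485 0.11, mir-433 0.17 and mir-543 0.16. An unadjusted p under 0.05 held in 9 of 12 omissions for mir-770, 6 for mir-485, 4 for mir-433 and 6 for mir-544. The red blood cell markers did not overlap here, at 33.4 to 39.9 CPM in SM and 25.6 to 28.2 in SF. The other marker sums overlapped. The part of the red blood cell markers in the member differences was not tested.

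**Figure D4:**
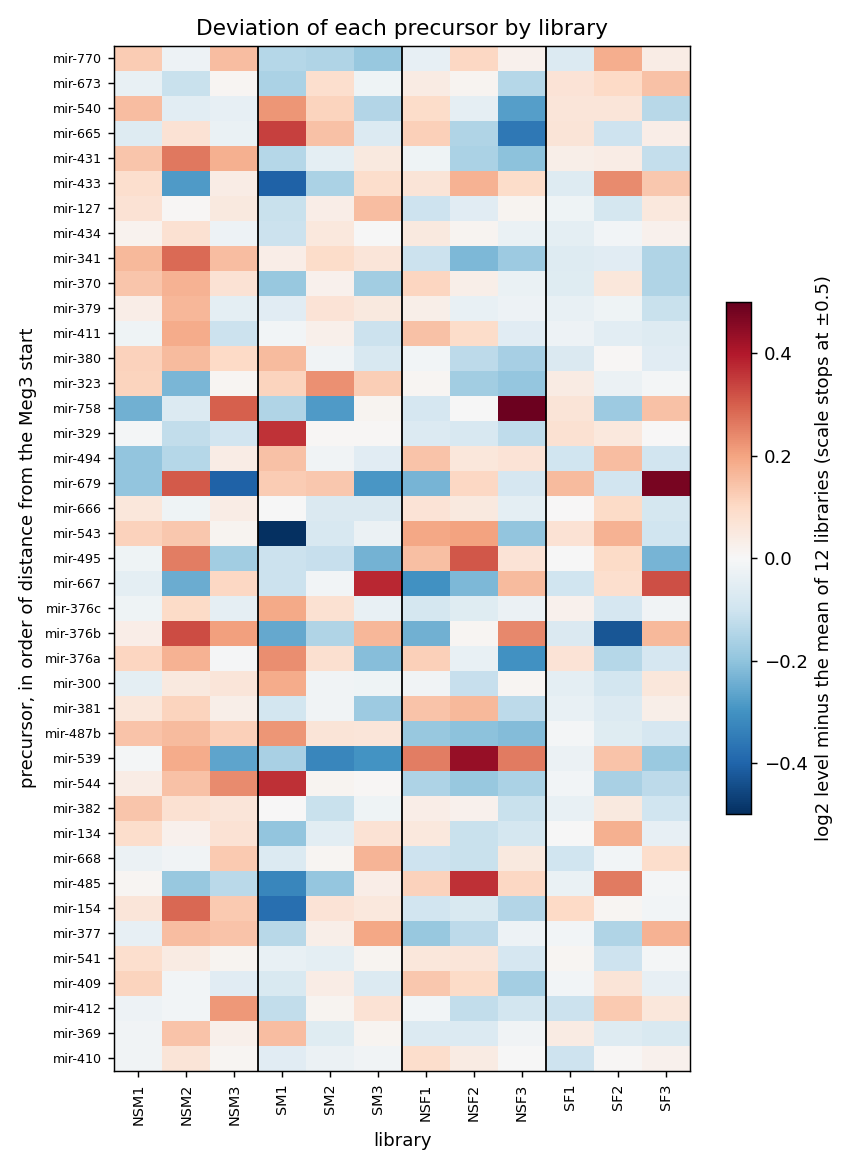
Deviation of each tested precursor from its own mean over the 12 libraries, log2 scale, in order along the domain; the colour scale stops at ±0.5. Columns are libraries by group, and 24 to 28 of the 41 members are above their mean in the NSM libraries and 12 to 22 in the other 9.

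The domain also holds genes measured in the mRNA libraries of the same pools. Levels of Meg3, Dlk1, Rtl1 and Dio3 and of 6 flanking genes could be tested, while Rian and Mirg were not analysed here. After SCVS in males 3 of the 10 were called (background 6.44%), all lower in SM. They were Dio3, which encodes the deiodinase that inactivates thyroid hormone, Dlk1, which encodes a transmembrane relative of Notch ligands, and Meg3. At p under 0.05 there were 6 of 10 (background 21.5%), and at an adjusted p under 0.05 only Dio3 (background 3.32%).

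Few reads fell on Dio3, with a level of 5.82, 3.66 and 5.46 CPM in NSM and 2.82, 2.45 and 2.28 in SM. In females it was 3.47, 3.94 and 2.80 in NSF and 2.73, 4.01 and 3.10 in SF. All NSM values were above all SM values, and the female groups overlapped. The male log2 difference was -0.98 (SE 0.20, 95% interval -1.41 to -0.54, adjusted p = 0.0243), a fold of 1.97. Without 1 library it ranged from -1.17 to -0.84 with an unadjusted p under 0.05 each time, and the adjusted p passed 0.05 without NSM3 (0.0888), SM1 (0.059) or SM2 (0.117).

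The level of Dlk1 was 160, 143 and 167 CPM in NSM and 141, 110 and 103 in SM, with no overlap, and 117, 132 and 103 in NSF and 131, 144 and 118 in SF. It fell by 0.43 in males on the log2 scale (SE 0.12, adjusted p = 0.0632), a fold of 1.34, and was no longer called without NSM3 (-0.37), SM2 (-0.38) or SM3 (-0.33). The host transcript Meg3 was at 3420, 3040 and 4720 CPM in NSM, and 2270, 2220 and 3510 in SM, which overlap. It stood at 2920, 3370 and 3250 in NSF and 2990, 2820 and 2300 in SF. The fall of 0.49 in males (SE 0.17, adjusted p = 0.134) lost its unadjusted p under 0.05 without NSM3 (-0.30), SM1 (-0.39) or SM2 (-0.37).

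Set side by side in males, Meg3 differed by -0.49 and its own miR mir-770 by -0.25, while the median of the cluster was -0.06. Among flanking genes Begain, whose product binds a postsynaptic scaffold protein, differed by -0.29 (adjusted p = 0.1; called without NSM1 at -0.39, and at -0.17 with p above 0.05 without NSM3) and Slc25a29, a mitochondrial carrier gene, by -0.25 (adjusted p = 0.171; -0.22, -0.16 and -0.15 with p above 0.05 without NSM2, NSM3 and SM2). The unadjusted p was above 0.05 for Wdr25, Wars, Yy1 and Ppp2r5c, which differed by -0.05 to 0.06. Rtl1 was at -0.29 (adjusted p = 0.141), and at -0.20 and -0.21 with p above 0.05 without NSM3 and SM2, but the mRNA kit did not keep strand, so its reads and those of the antisense transcript cannot be told apart.

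In females none of the 10 was called or had p under 0.05 (backgrounds 1.73% and 4.23%), with Meg3 at -0.24, Dlk1 at 0.16 and Dio3 at -0.07. In the test of the difference between the sexes 2 were called (background 4.42%), Dlk1 at 0.59 (SE 0.16, adjusted p = 0.273) and Dio3 at 0.91 (SE 0.29, adjusted p = 0.32), both with p under 0.05 in all 12 omissions of a library. For Meg3 it was 0.25 (adjusted p = 0.81), and it was called without SM3 (0.46). Unstressed females had less Dlk1 than unstressed males, by -0.42 (SE 0.12, adjusted p = 0.127), and less Dio3, by -0.53 (SE 0.18, adjusted p = 0.195), as the 2 called of 10 (background 5.31%), again against the same NSM libraries. The call of Dlk1 was lost without NSM3 (-0.38) or NSF3 (-0.34) and that of Dio3 without NSM1 (-0.41) or NSF3 (-0.41), while Rtl1, at -0.34, was called without NSM2 (-0.43) or NSF2 (-0.39). Between the stressed groups none was called (background 5.55%), and 3 of 10 had p under 0.05 (background 16.4%), Begain at 0.28 (adjusted p = 0.148), Slc25a29 at 0.25 (0.22) and Wars, a tRNA synthetase gene, at 0.11 (0.236). Without SM2 the p of all 3 was above 0.05, at 0.20, 0.15 and 0.07, and that of Wars was under it in 3 of 12 omissions.

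**Figure D5:**
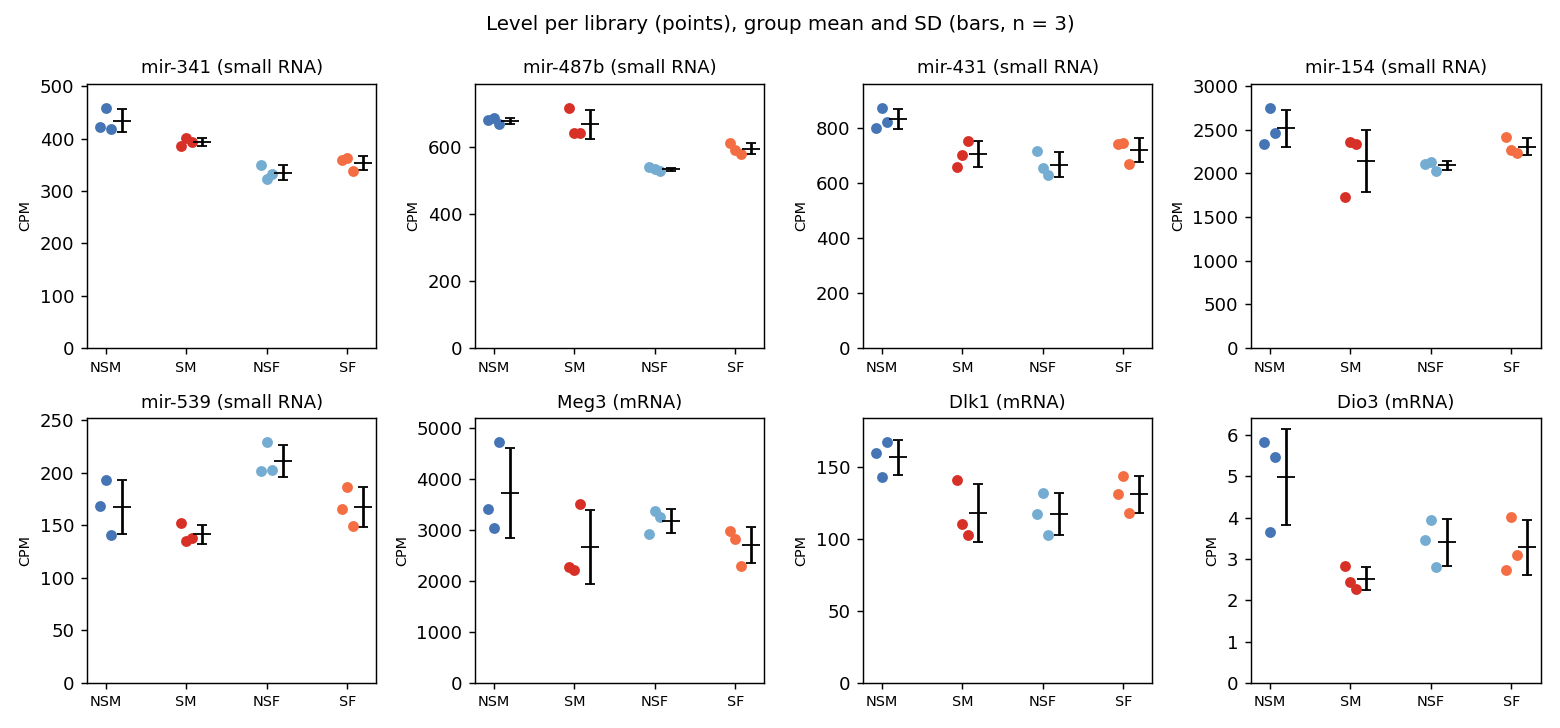
CPM in each library, by group, of mir-341, mir-487b, mir-431, mir-154, mir-539 and the genes Meg3, Dlk1 and Dio3. In mir-341 and mir-487b the 6 male libraries lie above the 6 female ones, in mir-539 the 3 NSF libraries lie above the rest, and in Dio3 the NSM values of 3.66 to 5.82 lie above SM at 2.28 to 2.82.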

How the data were processed

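Small RNA and mRNA libraries were made from separate fractions of the same 12 pools. For small RNA, the authors trimmed adaptors, aligned reads to mm9 (NCBIM37) with Bowtie and counted them with HTSeq, all libraries on 1 lane. For mRNA the authors used TopHat2 and HTSeq. Strand settings and the treatment of reads with several matches are not given in the sources used here. Both deposited tables hold raw counts per precursor or gene. The study's methods name mature annotation for the miRs, while the rows used here are precursors.

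A row was kept where 1 group or more had over 5 reads in 80% of its libraries, which with 3 means all of them. Counts were TMM scaled and fitted by voom and limma 3.58.1 (edgeR 4.0.16, R 4.3.3) with a mean for each of the 4 groups, on the whole table, and p-values were Benjamini-Hochberg adjusted over all rows tested. A call needed p under 0.05 and a fold of at least 1.3. The fit was checked on simulated counts. P-values rest on the spread between pools within groups, shared over the 4 groups and moderated by limma over all rows. Within groups no libraries were duplicates, since pairs differed by at least 41 times sampling noise (chi-square per degree of freedom).

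The members and lists were chosen with earlier results of these data known. Named members are the 5 with most reads, those called, the 3 with the largest difference in each comparison among those with a mean of at least 10 reads, those below the filter, seed pairs, and the domain's genes. Others at p under 0.05 were named after their values were seen. Alternatives were edgeR and DESeq2 1.42.0 tests, 3 scalings, 2 filters, 2 call rules, a replicate block, fits on the compared groups and omission of each library. Same-numbered female libraries correlated in their deviations (0.156, 0.203 and 0.318 for small RNA, 0.164, 0.101 and 0.224 for mRNA), and the block pairs them. It was fitted over the libraries of all groups, so it also tied male pools of the same number. The largest single value was in males, at 0.503 for replicate 3 in mRNA, where replicates 1 and 2 were at 0.0427 and 0.0524. Unstressed sexes were at 0.239, 0.0145 and 0.23 in mRNA. In no comparison other than that in females did all 3 pairs pass 0.1. Gene positions are from GENCODE vM1 for 39 members and from matching RefSeq hairpins to NCBIM37 for 5. No columns of the tables were left unmapped.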

Additional observations from a re-analysis of the deposited data

Results flagged for a closer look

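For 6 features the SCVS difference in females departed from that in males at an unadjusted p under 0.05 in the interaction term of limma. None did at an adjusted p under 0.05. The share of members, 4 of 41 (9.76%), was near the 8.8% of all tested miRs. Of the 10 domain and flanking genes 2 passed, against 9.55% of all genes. In the small RNA the female minus male log2 difference was 0.38 for mir-154 (adjusted p = 0.486), 0.35 for mir-431 (adjusted p = 0.42), 0.27 for mir-770 (adjusted p = 0.486) and 0.22 for mir-341 (adjusted p = 0.542). An unadjusted p under 0.05 held in 11 of 12 omissions of a library for mir-154, 12 for mir-431, 5 for mir-770 (lowest 0.17) and 4 for mir-341 (lowest 0.16). In the mRNA it was 0.59 for Dlk1 (adjusted p = 0.273) and 0.91 for Dio3 (adjusted p = 0.32), and held in all 12 for both. All 6 have a positive sign and all use the NSM libraries, in which mir-431 and mir-341 were higher than in any of the other 9 libraries. The NSM libraries also had the lowest mean depth of the groups, at 5086554 to 6738555 small RNA reads, although SM3 had 6455641. The part of depth was not tested.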

How the results depend on the processing

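None of the 45 fold changes recomputed, those at p under 0.05 or among the 3 largest members of a comparison, changed direction. Their unadjusted p kept its side of 0.05 in 801 recomputations, went above it in 126 and below it in 11. The median over members moved in 9 and not in 95, and between stressed sexes went from 0.01 to -0.03 without SF3. Counts of called members were 0 in males under every alternative that kept the fold threshold. Without it they were 6 in males, 2 in females, 4 in the interaction, 8 between unstressed sexes and 6 between stressed sexes. The single interaction call became 0 with edgeR, DESeq2, DESeq2 size factors, quantile normalization, a filter of 1 read or an adjusted p, and 2 with library size scaling; it lay at the fold threshold. Between unstressed sexes library size scaling and quantile normalization each gave 1. For the 10 domain and flanking genes an adjusted p left 1 in males, 0 in the interaction and 0 between unstressed sexes. No fold threshold gave 6 in males (21.5% of all genes) and 3 between stressed sexes (16.4%), all 3 of them flanking genes. Without mir-434 the shares were 6.56%, 6.21%, 6.27% and 6.40% in NSM, SM, NSF and SF.

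Omitting each library in turn gave 0 to 0 called members in males, 0 to 1 in females and 0 to 2 in the interaction. It gave 0 to 2 between unstressed and 0 to 0 between stressed sexes. Over all 500 tested miRs the same omissions called 18 to 32, 16 to 31, 25 to 38, 26 to 45 and 15 to 30. The domain and flanking genes gave 1 to 4, 0 to 0, 2 to 3, 0 to 3 and 0 to 0. Over all 18593 genes tested, the omissions called 821 to 1609 in males and 239 to 630 in females. The 4 in males came without NSM1, where 1528 of all genes were called. Shares were 7.59% to 7.67% in NSM, 7.18% to 7.33% in SM, 7.20% to 7.41% in NSF and 7.38% to 7.57% in SF. With the replicate block the called members stayed at 0 in males, 0 in females, 1 in the interaction and 0 in both sex comparisons. Over all tested miRs the block called 34, 23, 36, 42 and 25. The domain and flanking genes stayed at 3, 0, 2, 2 and 0. Over all genes the block called 1309 in males, 362 in females and 896 in the interaction. The members at p under 0.05 with the block were 11 in males, 4 in females and 4 in the interaction. Between unstressed sexes they were 10 and between stressed sexes 8, and a background for these counts is not given here. With 3 pools a group, the 95% interval of mir-679, the tested member with the fewest reads, ran from -0.16 to 0.71 in females.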

Other observations

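Of further precursors between Dlk1 and Dio3, 16 were looked up by name. Of these 8 were tested and none was called in any of the 5 comparisons, where 4.8% to 7.6% of all tested miRs were. The list was not complete, since mir-3544, whose hairpin overlaps that of mir-337, had 0 reads and was not on it. In the study's own results on mature strands, miR-493-3p was lower in males and miR-3072-3p higher in females after SCVS. Here the precursor mir-493 differed by 0.20 in males, and mir-3072 did not pass the read filter. Of the neighbours outside the domain, mir-345 differed by -0.29 in males after SCVS (adjusted p = 0.252) and mir-342 by 0.14 between unstressed sexes (adjusted p = 0.304).

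Among rows matched by name to a RefSeq hairpin that overlaps another, 39 of 44 had under 12 reads over all 12 libraries. Of matched rows with no overlap 349 of 900 did, and the medians were 0 and 34.5 reads. Of the cluster, mir-136 and mir-337 are among the overlapping rows. The cause was not tested.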
